A study of Homo sapiens with 27 samples.

Results

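A set of 10 genes that are switched on by, or act back on, the ERK branch of receptor tyrosine kinase signalling was followed in 3 human colorectal cancer cell lines before, during and after prolonged immune attack. They are the dual-specificity phosphatase genes DUSP4, DUSP5 and DUSP6, the Sprouty genes SPRY1 and SPRY4, PHLDA1, the ETS transcription factor genes ETV4 and ETV5, the AP-1 subunit gene FOSL1 and the receptor gene EPHA2. They were chosen by symbol as known ERK feedback and AP-1 output genes, with earlier results of these data known. Of the 10, 10 had a probe set on the array, among 17687 genes with a name. Total RNA was measured on 27 Affymetrix whole-transcript arrays, 3 for each of 9 groups. Resistant cells are those that survived 20 cycles of co-culture with 1000000 NK-CD16 cells (natural killer cells carrying the antibody receptor CD16) and 1 ug per ml cetuximab, an antibody that binds the epidermal growth factor receptor (EGFR), after seeding at 1000000 cells in a 10 cm dish. Withdrawal cells are resistant cells carried for 20 further cycles with no treatment. Parental cells are the original LIM1215, SW48 or Caco2 line, and per the labels each line was grown from a single clone, so each line stands for 1 clone. The labels do not say whether replicates came from separate cultures, so p-values measure the spread between these samples, which may be technical.

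In epithelial cells, ligands such as epiregulin bind EGFR, which activates a chain of kinases ending in ERK. ERK induces its own brakes: DUSP phosphatases remove the activating phosphates from ERK and related kinases, and Sprouty proteins dampen signalling between the receptor and RAS. It also raises transcription of ETS factors of the PEA3 group, such as ETV4 and ETV5, and stabilises AP-1 subunits such as FRA-1, the product of FOSL1. The RNA levels of these genes are therefore commonly read as a measure of ERK output in colorectal tumours, where the pathway is often active.

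Promoter sequence was available for 5 of the 10 genes, as 6 RefSeq start sites on GRCh38.p14, and the 250 bases before the start are shown for 4 of them, chosen as an ERK phosphatase, a gene that moved in LIM1215, a Sprouty and a receptor. Capitals mark matches, on either strand, to the AP-1 motif TGANTCA, the CRE motif TGACGTCA, the ETS motif CCGGAA, the PEA3 motif CAGGAA or the CArG box, and no matches overlap. The 4 windows, 5′ to 3′ along the gene's strand, are DUSP6 at chr12:89352502-89352751 (minus strand), PHLDA1 at chr12:76031777-76032026 (minus), the downstream start of SPRY1 at chr4:123398136-123398385 (plus) and EPHA2 at chr1:16156070-16156319 (minus).
DUSP6: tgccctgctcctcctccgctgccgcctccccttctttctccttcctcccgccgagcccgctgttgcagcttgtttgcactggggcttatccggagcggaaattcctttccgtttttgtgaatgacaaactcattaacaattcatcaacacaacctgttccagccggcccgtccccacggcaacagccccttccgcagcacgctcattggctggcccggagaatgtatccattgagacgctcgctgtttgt
PHLDA1: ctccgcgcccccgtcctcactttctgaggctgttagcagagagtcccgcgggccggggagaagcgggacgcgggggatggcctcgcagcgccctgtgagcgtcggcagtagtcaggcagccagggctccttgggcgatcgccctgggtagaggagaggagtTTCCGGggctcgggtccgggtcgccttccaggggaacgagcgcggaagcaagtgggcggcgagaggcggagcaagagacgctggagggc
SPRY1: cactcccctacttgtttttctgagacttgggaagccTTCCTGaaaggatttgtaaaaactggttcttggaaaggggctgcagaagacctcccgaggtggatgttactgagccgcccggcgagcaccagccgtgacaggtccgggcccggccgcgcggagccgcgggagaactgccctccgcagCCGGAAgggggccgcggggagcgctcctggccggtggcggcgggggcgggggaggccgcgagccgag
EPHA2: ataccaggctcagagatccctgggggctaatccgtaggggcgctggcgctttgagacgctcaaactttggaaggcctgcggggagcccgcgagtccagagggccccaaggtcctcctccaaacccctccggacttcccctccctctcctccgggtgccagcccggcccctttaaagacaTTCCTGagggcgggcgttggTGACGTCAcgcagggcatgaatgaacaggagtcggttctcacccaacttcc
PHLDA1 holds an ETS match 89 to 84 bases before its start. SPRY1 holds an ETS match at 67 to 62 and a PEA3 match at 214 to 209 bases, and EPHA2 a CRE match at 51 to 44 and a PEA3 match at 71 to 66 bases. The DUSP6 window, the upstream SPRY1 start and SPRY4 hold none of the 5 motifs. Of the 6 windows, AP-1 and the CArG box were in 0, CRE in 1, and ETS and PEA3 in 2 each. Among 35116 promoters of the same length, 6.57% hold the AP-1 motif, 1.16% the CArG box, 1.65% CRE, 14.53% ETS and 24.1% PEA3. A match describes letters only.

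The deposited values were read as log2 intensities, and a gene was taken as near background where its group mean lay under the 95th percentile of 612 negative controls. At the stricter 99th percentile, 45 of the 90 group means of the 10 genes were near background. Folds given as measured therefore rest on the 95th percentile. Median values differ between lines (7.904 to 8.052 on LIM1215, 6.432 to 6.542 on SW48 and 6.989 to 7.081 on Caco2 arrays), so levels were compared within a line only, and not between genes. A single array stands apart. LIM1215 parental replicate 3 lay above both other LIM1215 parental arrays for 10 of the 10 genes, by 0.28 to 3.44 log2 units over their mean, and nearer to the mean of the withdrawal arrays for 9 of 10. It also had 16 of 16 type I interferon response genes above background, against 8 on each of the other parental arrays. Differences of the 10 genes from LIM1215 parental cells are given with and without it, while tests between pairs of lines use all arrays. It enters the other lines' tests through the shared estimate of spread, and calls of the 10 genes that change without it are stated.

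Markers of NK cells and leukocytes were present in the resistant cultures. Of 22 NK cell and leukocyte markers, 11 to 13 were above background in LIM1215 resistant arrays against 0 in parental arrays, with summed levels (on the log2 scale) of 13.26 to 13.64 against 8.88 to 9.05. In Caco2 the counts were 7 to 9 in resistant arrays against 0 in parental arrays, with summed levels of 13.04 to 13.37 against 8.5 to 8.66. In SW48 they were 2 to 5 against 1, with summed levels of 10.54 to 11.14 against 8.5 to 8.75. GZMA, LCP1 and NCAM1 were above background on average in resistant cells of all 3 lines, while CD2, CD247, CD53, CD7, GZMH, IL2RB, KLRB1, KLRC1, KLRD1 and LCK were near background in all 9 groups. Withdrawal arrays had 0 markers above background in LIM1215, 1 in SW48 and 0 in Caco2. Their summed levels were 8.81 to 8.97 in LIM1215 and 8.26 to 8.43 in Caco2, but 9.66 to 9.8 in SW48, above the 8.5 to 8.75 of SW48 parental arrays. At an adjusted p under 0.05 from limma, 1 of the 22 rose and 0 fell between SW48 withdrawal and parental cells. Their median difference was -0.0078, and 1.78% of all genes rose and 2.3% fell. Between SW48 resistant and parental cells 13 rose and 1 fell, where 10.9% of all genes rose and 11.8% fell. Of 9 colonic epithelial markers, 9 were above background on each LIM1215 array, 6 on each SW48 array and 7 on each Caco2 array. The part of NK cell RNA in the differences between resistant cells and the other states was not tested, and in such bulk RNA fewer cells of a type and less RNA per cell cannot be told apart.

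**Figure D1:**
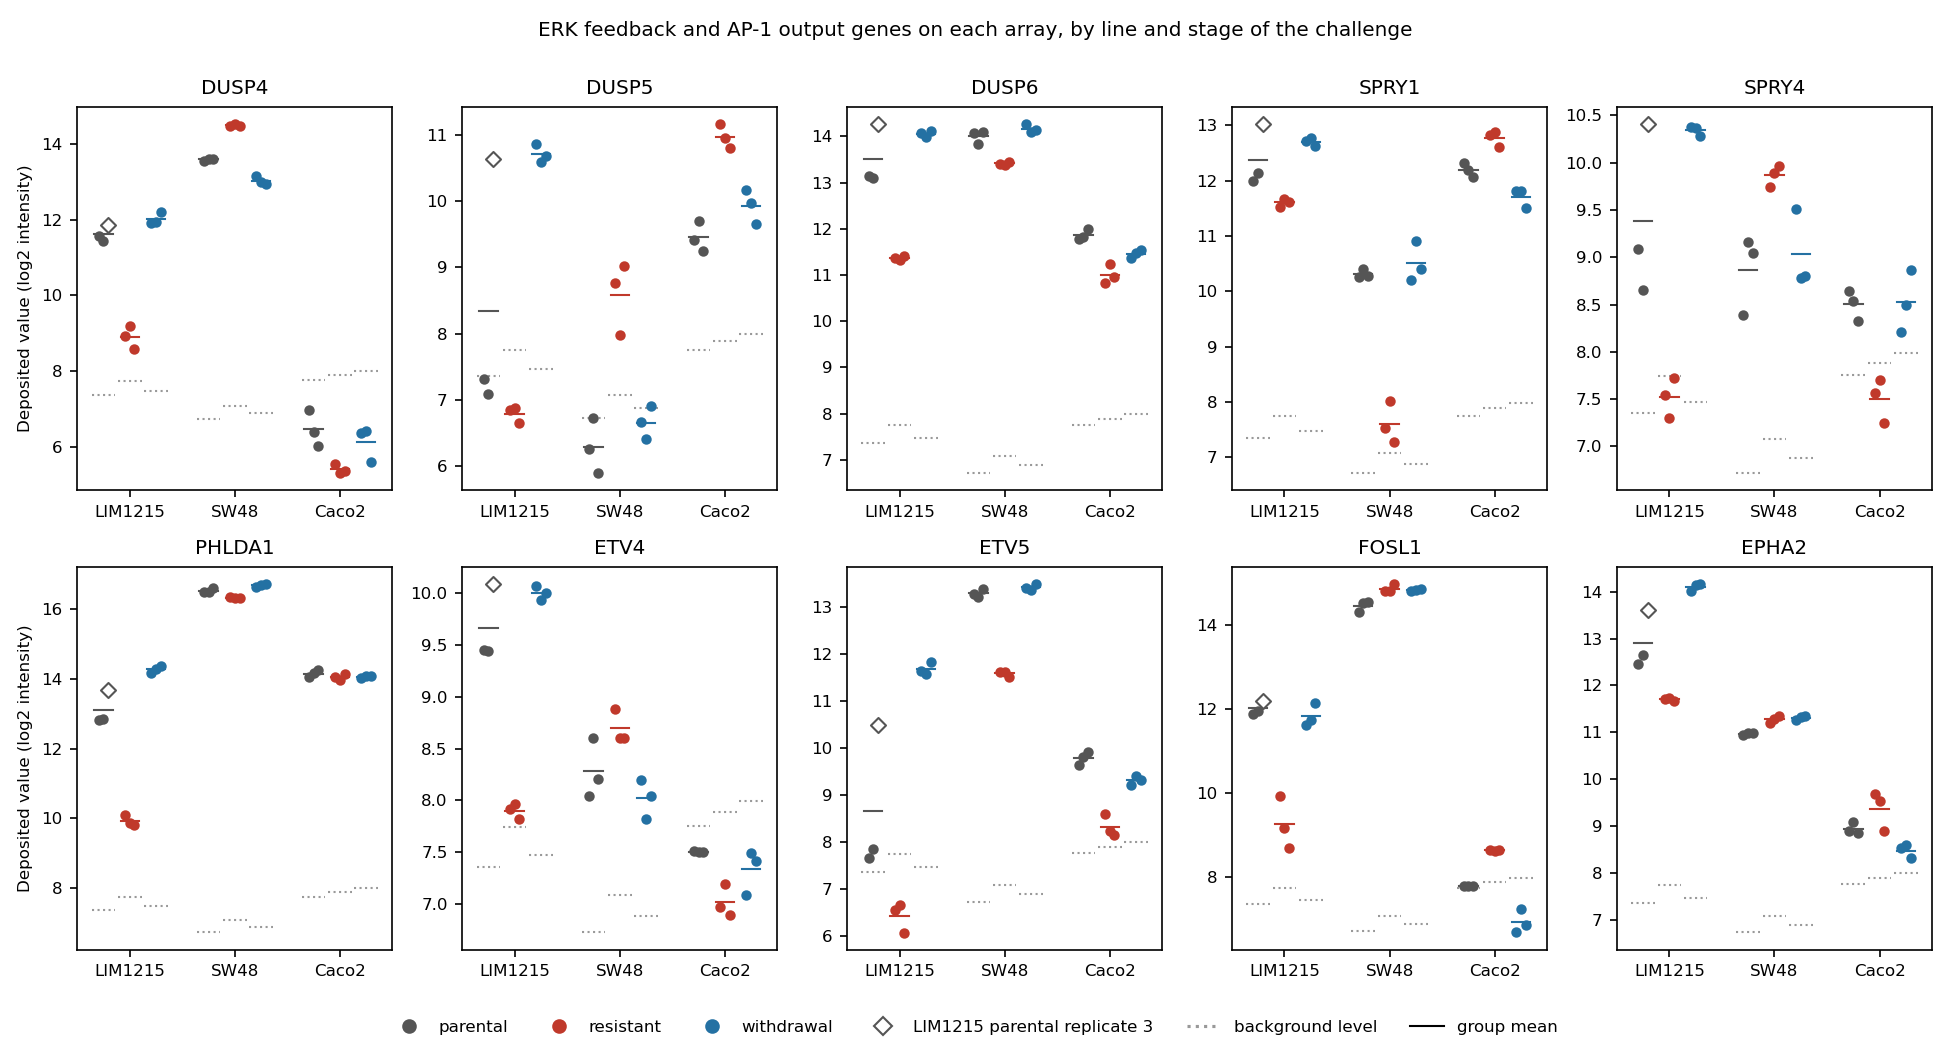
Deposited log2 intensity (vertical axis) of each of the 10 genes on each array, with 1 panel per gene and the 3 lines along the horizontal axis, each in the order parental, resistant and withdrawal. Points are arrays, short solid lines group means, dotted lines the background level, and the open diamond is LIM1215 parental replicate 3. In LIM1215 the resistant arrays are lowest for 10 of 10 genes, while in SW48 and Caco2 the genes do not move together.

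In LIM1215, the ERK output genes were lower together in resistant cells and higher together after withdrawal. Since the 10 genes were chosen with earlier results of these data known, the counts below describe them and are no independent test. Between resistant and parental cells, 9 of 10 fell and 0 rose, at an adjusted p under 0.05 from limma, with a median difference over the 10 genes of -2.0 log2 units. Over all genes tested, 5.39% fell and 5.42% rose, with a median of -0.03. Without parental replicate 3, 8 fell and 0 rose, with a median of -1.45, where 7.37% of all genes fell and 7.35% rose. Between withdrawal and resistant cells, 10 of 10 rose (median 2.76), where 13.6% of all genes rose and 14.4% fell. Between withdrawal and parental cells, 6 rose and 0 fell (9.89% and 11.2% of all genes), or 8 and 0 without parental replicate 3 (13.3% and 15.1%). The resistant mean was the lowest of the 3 states for 10 of 10 genes, and the withdrawal mean the highest for 9, FOSL1 being the exception.

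SW48 and Caco2 showed no common direction. In SW48 resistant cells, DUSP4, DUSP5 and SPRY4 rose and DUSP6, SPRY1 and ETV5 fell against parental cells, which is 3 of 10 each way where 10.9% of all genes rose and 11.8% fell, or 4 and 3 without LIM1215 parental replicate 3 (12.5% and 13.2%). Between SW48 withdrawal and parental cells, 0 of 10 passed, where 1.78% of all genes rose and 2.3% fell, and the same held without LIM1215 parental replicate 3. At an unadjusted p under 0.05, 1 of the 10 (DUSP4, lower) passed in that comparison, and no second tool was run. Between SW48 withdrawal and resistant cells, 3 rose and 3 fell, where 11.1% of all genes rose and 11.1% fell, or 4 and 4 without LIM1215 parental replicate 3 (12.5% and 12.5%). In Caco2 resistant cells, DUSP5, SPRY1 and FOSL1 rose and DUSP4, DUSP6, SPRY4, ETV4 and ETV5 fell, with 12.9% of all genes rising and 14.5% falling, or 4 rose and 5 fell without that array (14.3% and 16.3%). Both the DUSP4 and the ETV4 changes in Caco2 lay near background. Between Caco2 withdrawal and parental cells, 0 rose and 1 fell (2.73% and 2.54% of all genes), or 0 and 4 without LIM1215 parental replicate 3 (3.51% and 3.38%). Between Caco2 withdrawal and resistant cells, 2 rose and 3 fell (12.1% and 12.5%), or 4 and 4 without that array (13.9% and 14.2%).

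**Figure D2:**
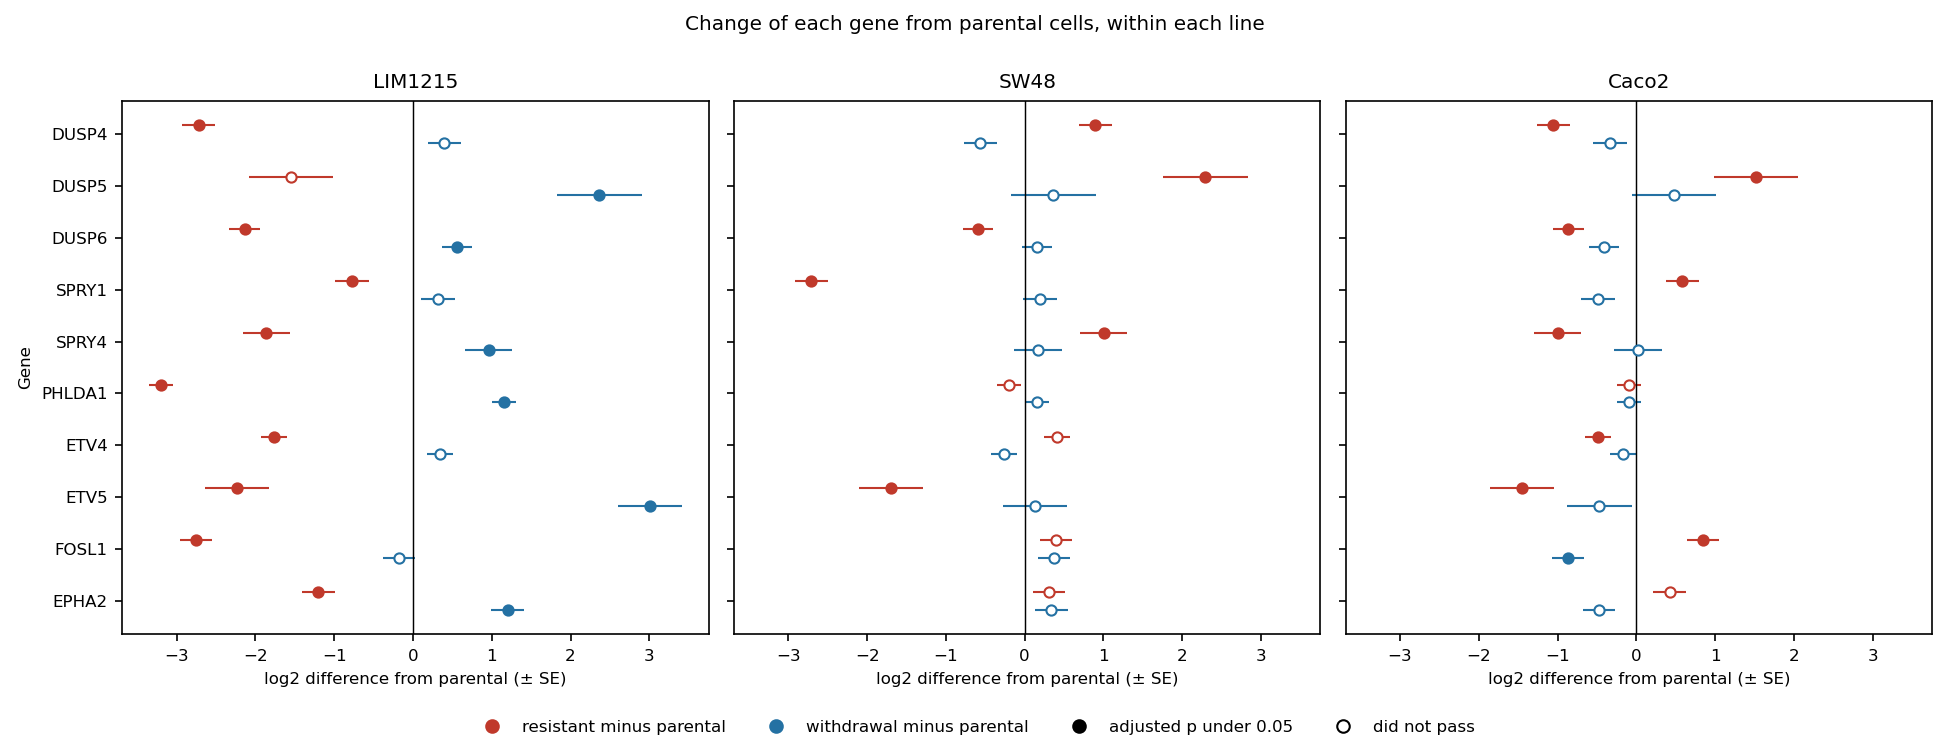
Log2 difference from parental cells with its standard error (horizontal axis) for each gene (vertical axis), with 1 panel per line; red is resistant minus parental and blue withdrawal minus parental. Filled points had an adjusted p under 0.05. In LIM1215 all red points lie below 0 and 9 of 10 blue points above it; in SW48 and Caco2 red points lie on both sides, and 1 blue point, Caco2 FOSL1, is filled.

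The dual-specificity phosphatases differ in where they act: DUSP6 resides in the cytoplasm and is selective for ERK, DUSP5 is its nuclear counterpart, and DUSP4 is a nuclear phosphatase that also acts on JNK and p38. DUSP6 read 11.37, 11.32 and 11.40 in LIM1215 resistant cells, against 13.14, 13.10 and 14.26 in parental cells. The groups did not overlap, and DUSP6 was 4.40-fold lower in resistant cells (log2 difference -2.14 ± 0.19 SE, adjusted p = 2.47e-08), or 3.38-fold lower without parental replicate 3. In LIM1215 withdrawal cells it read 14.08, 13.99 and 14.12, which is 6.49-fold above resistant cells (adjusted p = 4.01e-10) and 1.48-fold above parental cells (adjusted p = 0.0426, or 1.92-fold and 2.35e-06 without replicate 3). Leaving out any other of the parental and withdrawal arrays ended that last call (adjusted p = 0.0713 to 0.274). DUSP6 also fell in the other lines, by smaller amounts. It read 13.41, 13.39 and 13.44 in SW48 resistant cells, against 14.08, 13.83 and 14.10 in parental cells (1.51-fold lower, adjusted p = 0.0298). It read 10.83, 11.23 and 10.96 in Caco2 resistant cells, against 11.79, 11.83 and 12.00 in parental cells (1.82-fold lower, adjusted p = 0.00142). In neither line did the groups overlap. Caco2 withdrawal cells, at 11.37, 11.48 and 11.54, lay between the other 2 states. With all arrays they passed neither against resistant cells (adjusted p = 0.0999) nor against parental cells (0.311). Without LIM1215 parental replicate 3 they passed against resistant cells (0.45 ± 0.11, adjusted p = 0.00221) and parental cells (-0.41 ± 0.11, adjusted p = 0.0173). The first difference also passed with the Caco2 arrays fitted alone (0.0349), and the second with array weights (0.0456). The SW48 call was lost when any of the 6 arrays other than parental replicate 2 was left out (adjusted p = 0.061 to 0.0993). The LIM1215 change differed from that of SW48 by -1.55 ± 0.27 log2 units (adjusted p = 0.000243) and from that of Caco2 by -1.27 ± 0.27 (adjusted p = 0.00141).

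DUSP4 took opposite directions in LIM1215 and SW48. It read 8.92, 9.20 and 8.58 in LIM1215 resistant cells, against 11.58, 11.43 and 11.85 in parental cells, a 6.59-fold decrease (-2.72 ± 0.21, adjusted p = 1.71e-09), or 6.08-fold without parental replicate 3. The LIM1215 withdrawal values were 11.91, 11.94 and 12.20, above each parental array, and the difference of 0.40 ± 0.21 did not pass (adjusted p = 0.206, or 0.51 ± 0.23 and 0.11 without replicate 3). In SW48 the gene read 14.49, 14.52 and 14.47 in resistant cells, against 13.56, 13.62 and 13.61 in parental cells. That is a 1.86-fold increase (adjusted p = 0.00261), and SW48 withdrawal cells, at 13.17, 12.99 and 12.95, were 2.75-fold below resistant cells (adjusted p = 1.32e-05) and lay below each parental array without passing (-0.56 ± 0.21, adjusted p = 0.158, or 0.0348 with the SW48 arrays fitted alone). In Caco2, DUSP4 was near background in each state, with 5.31 to 5.54 in resistant cells against 6.02 to 6.96 in parental cells, so no fold is given.

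DUSP5 was the phosphatase most dependent on LIM1215 parental replicate 3. It read 6.84, 6.88 and 6.65 in LIM1215 resistant cells, against 7.31, 7.09 and 10.64 in parental cells, and its decrease did not pass (-1.55 ± 0.54, adjusted p = 0.0683, or -0.41 ± 0.25 and 0.352 without replicate 3). It passed when parental replicate 1 or 2 was left out instead (adjusted p = 0.0186 and 0.00883). Resistant cells and the first pair of parental arrays were near background. LIM1215 withdrawal cells stood at 10.86, 10.59 and 10.68, at least 7.82-fold above resistant cells (adjusted p = 6.27e-06). Against parental cells, of which 1 of 3 arrays was above background and inside the withdrawal range, the increase was at least 4.56-fold (2.37 ± 0.54, adjusted p = 0.00273), or at least 9.50-fold without that array, and the call was lost when the LIM1215 arrays were fitted alone (adjusted p = 0.0798). In the other lines DUSP5 rose in resistant cells. The SW48 values were 8.76, 7.97 and 9.02 in resistant cells against 6.25, 6.72 and 5.90 in parental cells, which are near background, so resistant cells were at least 3.60-fold higher (adjusted p = 0.00255). The Caco2 values were 11.16, 10.95 and 10.80 in resistant cells against 9.41, 9.69 and 9.25 in parental cells (2.86-fold higher, adjusted p = 0.0372, and 0.0556 to 0.105 without any 1 of these 6 arrays). DUSP5 returned to near background in SW48 withdrawal cells (6.66, 6.40 and 6.90). Caco2 withdrawal cells lay between, at 10.17, 9.97 and 9.65, and passed neither against resistant cells (-1.04 ± 0.54, adjusted p = 0.181) nor against parental cells (0.48 ± 0.54, adjusted p = 0.795). Without LIM1215 parental replicate 3 the shared error of this gene was 0.23, and the difference between Caco2 withdrawal and resistant cells passed (adjusted p = 0.00117).

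The Sprouty genes, whose products restrain RAS activation, parted from each other outside LIM1215. SPRY4 read 7.54, 7.30 and 7.72 in LIM1215 resistant cells, which is near background, against 9.09, 8.66 and 10.40 in parental cells. Resistant cells were at least 2.80-fold lower (-1.86 ± 0.30, adjusted p = 0.000112), or at least 1.97-fold without parental replicate 3. LIM1215 withdrawal values of 10.38, 10.36 and 10.29 lay at least 5.44-fold above resistant cells (adjusted p = 2.1e-07) and 1.94-fold above parental cells (adjusted p = 0.0257, or 2.77-fold and 5.46e-05 without replicate 3). That last call was lost without any other of its 5 arrays (adjusted p = 0.054 to 0.216). The SW48 values were 9.74, 9.89 and 9.96 in resistant cells against 8.38, 9.16 and 9.04 in parental cells, a 2.0-fold increase (adjusted p = 0.0178), which was lost without parental replicate 1 (0.115) or resistant replicate 3 (0.0573). The Caco2 values were 7.56, 7.70 and 7.25 in resistant cells, near background, against 8.64, 8.53 and 8.33 in parental cells, at least 1.54-fold lower (adjusted p = 0.0148, and 0.0542 without parental replicate 1 or 0.0665 without resistant replicate 3). SW48 withdrawal values of 9.51, 8.79 and 8.80 lay below each resistant array, and the difference did not pass with all arrays (adjusted p = 0.0511). It passed in 8 of 16 alternative settings. Among these were the fit without LIM1215 parental replicate 3 (-0.83 ± 0.21, adjusted p = 0.00509) and the SW48 arrays fitted alone (0.0366). SPRY4 thus rose in SW48 and fell in the other 2 lines with no overlap between groups, and Caco2 withdrawal cells (8.21, 8.49 and 8.86) overlapped parental cells.

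SPRY1 was the gene least like the rest, with a median correlation of 0.337 with the other 9 over the 9 group means. In SW48 it read 7.52, 8.01 and 7.28 in resistant cells, against 10.26, 10.41 and 10.27 in parental cells, a 6.53-fold decrease (-2.71 ± 0.21, adjusted p = 1.66e-09). SW48 withdrawal cells were back at 10.20, 10.91 and 10.40, 7.45-fold above resistant cells (adjusted p = 5.2e-10) and overlapping parental cells. In Caco2 it moved the other way, with 12.82, 12.89 and 12.61 in resistant cells against 12.32, 12.19 and 12.06 in parental cells (1.5-fold higher, adjusted p = 0.0454, and 0.0568 to 0.139 without any 1 of these arrays other than resistant replicate 3). Caco2 withdrawal cells, at 11.81, 11.81 and 11.50, were 2.10-fold below resistant cells (adjusted p = 0.000538) and lay below each parental array (-0.48 ± 0.21, adjusted p = 0.27). In LIM1215 resistant cells it read 11.52, 11.67 and 11.62, against 12.00, 12.13 and 13.02 in parental cells. That 1.71-fold decrease (adjusted p = 0.0186) was lost without parental replicate 3 (1.37-fold, adjusted p = 0.116), resistant replicate 1 (0.067) or resistant replicate 3 (0.051). LIM1215 withdrawal cells averaged 0.32 ± 0.21 above parental cells (adjusted p = 0.336), which passed without replicate 3 (1.56-fold, adjusted p = 0.0124). The change differed between lines (F test of limma, adjusted p = 5.33e-08), and the SW48 change minus the Caco2 change was -3.29 ± 0.30 log2 units.

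PHLDA1 encodes a pleckstrin homology-like domain protein that is induced by growth factor signalling. It changed in LIM1215, where its log2 difference was the largest decrease among the 10 genes, and did not pass between resistant and parental cells of either other line. It read 10.09, 9.86 and 9.81 in LIM1215 resistant cells, against 12.82, 12.85 and 13.69 in parental cells. No arrays overlapped, and the decrease was 9.18-fold (-3.20 ± 0.15, adjusted p = 3.46e-13), or 7.54-fold without parental replicate 3. LIM1215 withdrawal cells stood at 14.17, 14.29 and 14.37, 20.5-fold above resistant cells (adjusted p = 1.01e-15) and 2.24-fold above parental cells (adjusted p = 1.47e-05, or 2.72-fold and 5.91e-10 without replicate 3). In SW48 the values were 16.31 to 16.34 in resistant cells against 16.49 to 16.60 in parental cells, and the difference of -0.20 ± 0.15 did not pass (adjusted p = 0.448). SW48 withdrawal cells, at 16.64, 16.69 and 16.72, lay above each resistant array, a difference that did not pass with all arrays (adjusted p = 0.105). It passed in 4 of 16 alternative settings. Among these were the fit without LIM1215 parental replicate 3 (0.36 ± 0.09, adjusted p = 0.00462) and the SW48 arrays fitted alone (0.0347). In Caco2 the values were 13.97 to 14.13 in resistant cells against 14.05 to 14.24 in parental cells (-0.10 ± 0.15, adjusted p = 0.723). The LIM1215 change differed from that of SW48 by -3.00 ± 0.22 (adjusted p = 5.99e-10) and from that of Caco2 by -3.10 ± 0.22 (adjusted p = 2.73e-10).

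ETV5 fell in resistant cells of all 3 lines. This ETS factor is a nuclear target of ERK in many epithelia. It read 6.55, 6.66 and 6.07 in LIM1215 resistant cells, below background, against 7.66, 7.85 and 10.47 in parental cells. That is at least 1.89-fold lower (-2.23 ± 0.41, adjusted p = 0.000456), and at least 1.01-fold lower without parental replicate 3, since the remaining parental arrays are dim too. With the LIM1215 arrays fitted alone it did not pass (adjusted p = 0.0749). In SW48 it read 11.61, 11.61 and 11.51 in resistant cells, against 13.27, 13.20 and 13.37 in parental cells (3.25-fold lower, adjusted p = 0.00332). In Caco2 it read 8.59, 8.24 and 8.15 in resistant cells, against 9.63, 9.79 and 9.90 in parental cells (2.73-fold lower, adjusted p = 0.00925). No groups overlapped in any line, and ETV5 was the 1 gene of the 10 whose change did not differ between the lines by the F test (adjusted p = 0.553), which does not show that the changes are equal. The lines parted after withdrawal. LIM1215 withdrawal cells reached 11.63, 11.56 and 11.82, at least 15.2-fold above resistant cells (adjusted p = 1.6e-09) and 8.03-fold above parental cells (3.01 ± 0.41, adjusted p = 1.94e-05), or 15-fold without replicate 3. SW48 withdrawal cells read 13.40, 13.34 and 13.47, 0.13 ± 0.41 above parental cells on average (adjusted p = 0.941). Caco2 withdrawal cells, at 9.21, 9.41 and 9.31, lay below each parental array, which passed only without LIM1215 parental replicate 3 (-0.47 ± 0.14, adjusted p = 0.0424; 0.701 with it). Their difference from Caco2 resistant cells did not pass with all arrays either (adjusted p = 0.0885). It passed without that array (0.98 ± 0.14, adjusted p = 8.38e-06), with the Caco2 arrays fitted alone (0.00085) and with array weights (0.00322). The change from parental to withdrawal cells differed between lines (F test, adjusted p = 0.000372).

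ETV4, a close relative of ETV5, followed it in LIM1215 but not in SW48. It read 7.91, 7.97 and 7.82 in LIM1215 resistant cells, against 9.45, 9.44 and 10.09 in parental cells. With 1 of 3 resistant arrays above background, they were at least 3.32-fold lower (-1.76 ± 0.17, adjusted p = 4.29e-08), or at least 2.87-fold without parental replicate 3. LIM1215 withdrawal cells were at 10.07, 9.94 and 10.00, at least 4.21-fold above resistant cells (adjusted p = 1.86e-09). Against parental cells they did not pass with all arrays (adjusted p = 0.162). They passed without replicate 3 (1.47-fold, adjusted p = 0.00889) and with array weights (0.00466). In SW48 resistant cells it read 8.89, 8.60 and 8.60, against 8.04, 8.60 and 8.21 in parental cells, and the difference of 0.42 ± 0.17 did not pass (adjusted p = 0.0797, 0.0303 without LIM1215 parental replicate 3 and 0.0213 without SW48 parental replicate 2). SW48 withdrawal cells were 1.60-fold below resistant cells (adjusted p = 0.00381). Caco2 values were near background in each state, at 6.89 to 7.19 in resistant cells against 7.50 to 7.51 in parental cells (adjusted p = 0.0309, and 0.0672 to 0.111 without any 1 of these arrays other than resistant replicate 2).

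FOSL1 encodes FRA-1, an AP-1 subunit that ERK both induces and stabilises. It read 9.93, 9.17 and 8.70 in LIM1215 resistant cells, against 11.89, 11.96 and 12.21 in parental cells. The decrease was 6.75-fold (-2.75 ± 0.20, adjusted p = 9.16e-10), and 6.32-fold without parental replicate 3. Withdrawal values of 11.62, 11.75 and 12.15 were 5.97-fold above resistant cells (adjusted p = 2.14e-09) and overlapped parental cells (-0.18 ± 0.20, adjusted p = 0.623, or -0.08 ± 0.23 and 0.846 without replicate 3). In Caco2, FOSL1 moved the other way. It read 8.66, 8.62 and 8.65 in resistant cells, against 7.79, 7.80 and 7.81 in parental cells, of which 2 of 3 arrays were above background (at least 1.70-fold higher, 0.85 ± 0.20, adjusted p = 0.00277). Caco2 withdrawal cells fell below background, at 6.69, 7.25 and 6.86, under each parental array (-0.87 ± 0.20, adjusted p = 0.0117, and 0.0766 or 0.051 without withdrawal replicate 1 or 3), and at least 1.57-fold below resistant cells (adjusted p = 7.65e-07). No fold is given between Caco2 withdrawal and parental cells, since parental cells lie close to background. In SW48 the values were 14.81 to 14.98 in resistant cells against 14.32 to 14.57 in parental cells, which did not overlap but did not pass (0.40 ± 0.20, adjusted p = 0.196, or 0.0369 with the SW48 arrays fitted alone).

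EPHA2 encodes a receptor tyrosine kinase for ephrin-A ligands that ERK signalling induces in epithelial tumours. It read 11.72, 11.72 and 11.68 in LIM1215 resistant cells, against 12.46, 12.64 and 13.61 in parental cells, a 2.30-fold decrease (-1.20 ± 0.21, adjusted p = 0.000226), or 1.80-fold without parental replicate 3. LIM1215 withdrawal cells were at 14.02, 14.14 and 14.16, above each parental array, by 2.30-fold on average (adjusted p = 0.000236, or 2.94-fold and 1.34e-07 without replicate 3), and 5.29-fold above resistant cells (adjusted p = 7.37e-09). In SW48 it read 11.19, 11.29 and 11.35 in resistant cells against 10.93, 10.99 and 10.99 in parental cells, a difference that did not pass (0.31 ± 0.21, adjusted p = 0.363). In Caco2 it read 9.68, 9.52 and 8.89 in resistant cells against 8.89, 9.09 and 8.85 in parental cells (0.42 ± 0.21, adjusted p = 0.147), and passed without LIM1215 parental replicate 3 (adjusted p = 0.0267) or Caco2 resistant replicate 3 (0.0204). Caco2 withdrawal cells, at 8.52, 8.59 and 8.31, were 1.86-fold below resistant cells (adjusted p = 0.00206) and below each parental array. The difference from parental cells did not pass with all arrays (adjusted p = 0.258). It passed without LIM1215 parental replicate 3 (-0.47 ± 0.14, adjusted p = 0.0469) and with array weights (0.0427).

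**Figure D3:**
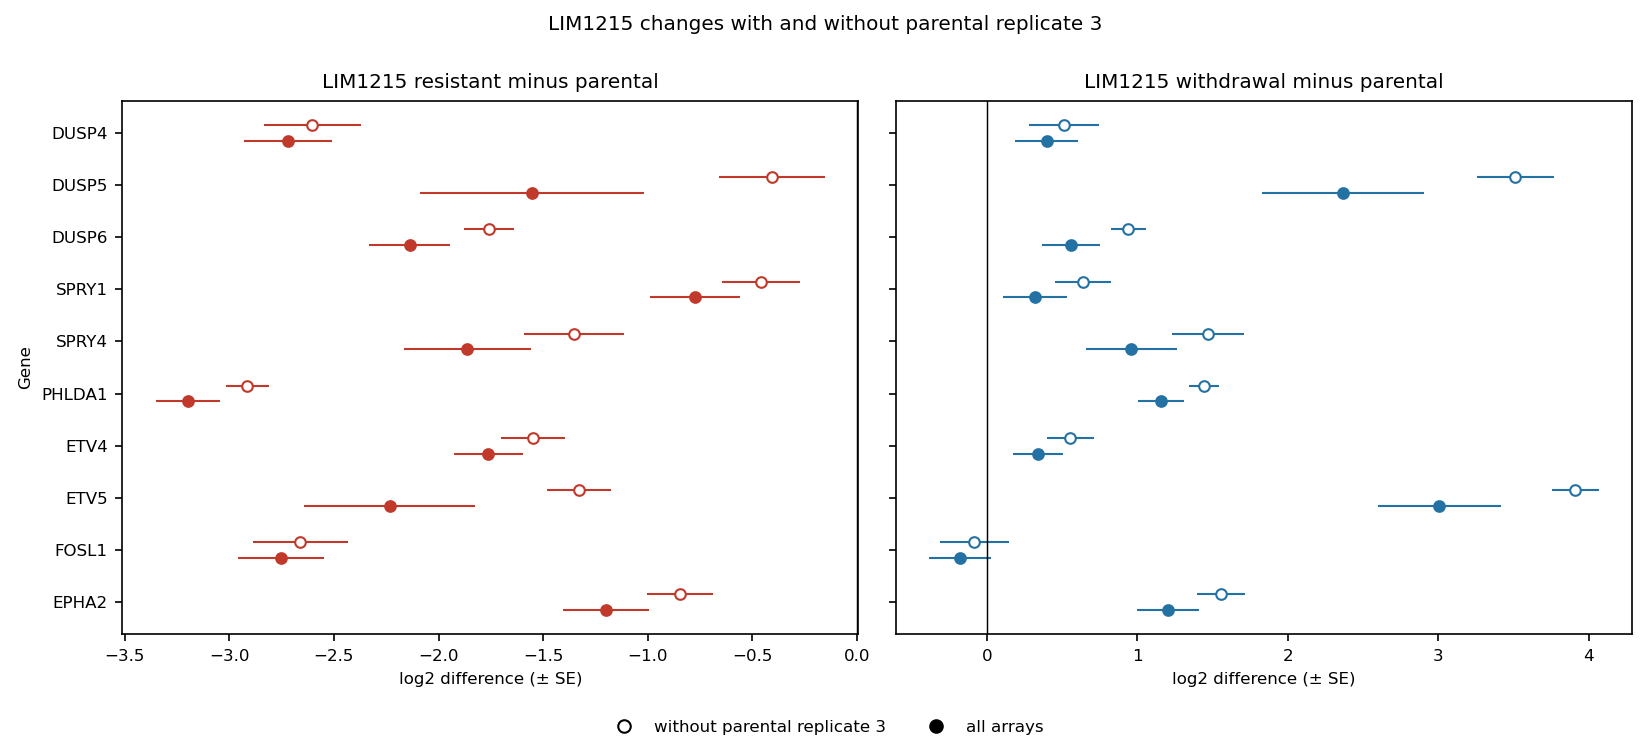
Log2 difference with its standard error (horizontal axis) of each gene (vertical axis) in LIM1215, for resistant minus parental (left) and withdrawal minus parental (right), computed without parental replicate 3 (open) and with all arrays (filled). DUSP5 shifts most, with -0.41 without the array and -1.55 with it for resistant cells, while FOSL1 is at -2.66 without it and -2.75 with it.

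Tested against each other, the lines differed in the change from parental to resistant cells for 9 of the 10 genes, where 34.7% of all genes did, and in the change from parental to withdrawal cells for 5 (DUSP6, PHLDA1, ETV5, FOSL1 and EPHA2), where 18.9% did. Without LIM1215 parental replicate 3 that second count was 10. LIM1215 differed from SW48 in the resistant change for each of those 9 genes, and from Caco2 for 8, SPRY4 being the exception (adjusted p = 0.17). SW48 and Caco2 differed from each other for DUSP4, SPRY1, SPRY4 and ETV4, and their DUSP5, DUSP6, PHLDA1, FOSL1 and EPHA2 changes did not pass a test of the difference (adjusted p = 0.3 to 0.843). In Caco2, DUSP4 and ETV4 were near background in each state, and SPRY4 in resistant cells. The sizes of the line differences that use these Caco2 changes are therefore uncertain.

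Upstream of these genes, EGFR itself was lower in resistant cells of SW48 and Caco2. It read 11.22, 11.19 and 11.49 in SW48 resistant cells, against 13.37, 13.64 and 13.67 in parental cells (4.80-fold lower, adjusted p = 1.29e-11). In Caco2 it read 8.61, 8.38 and 8.72 in resistant cells, against 9.93, 9.53 and 9.82 in parental cells (2.28-fold lower, adjusted p = 3.46e-07). After withdrawal EGFR was 3.98-fold above resistant cells in SW48 (adjusted p = 1.26e-10) and 2.25-fold in Caco2 (adjusted p = 5.15e-07). In LIM1215, where the output genes fell together, EGFR read 11.44, 11.58 and 11.18 in resistant cells against 11.59, 11.50 and 11.50 in parental cells, and did not pass (-0.13 ± 0.14, adjusted p = 0.67, or 0.636 without parental replicate 3). EREG, which encodes the EGFR ligand epiregulin and is also counted among the secreted or surface targets below, was lower in LIM1215 resistant cells. It read 12.29, 12.39 and 12.40 in LIM1215 resistant cells, against 13.34, 13.45 and 15.40 in parental cells (3.26-fold lower, adjusted p = 0.00034, or 2.05-fold without replicate 3). LIM1215 withdrawal cells, at 15.55, 15.51 and 15.63, were 9.22-fold above resistant cells (adjusted p = 3.3e-08). In SW48 resistant cells EREG was not called lower, since 0 of the 20 measured secreted or surface targets fell there. EREG values in SW48 and Caco2 are not given here. Whether EGFR or EREG had a part in the changes of the 10 genes was not tested.

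**Figure D4:**
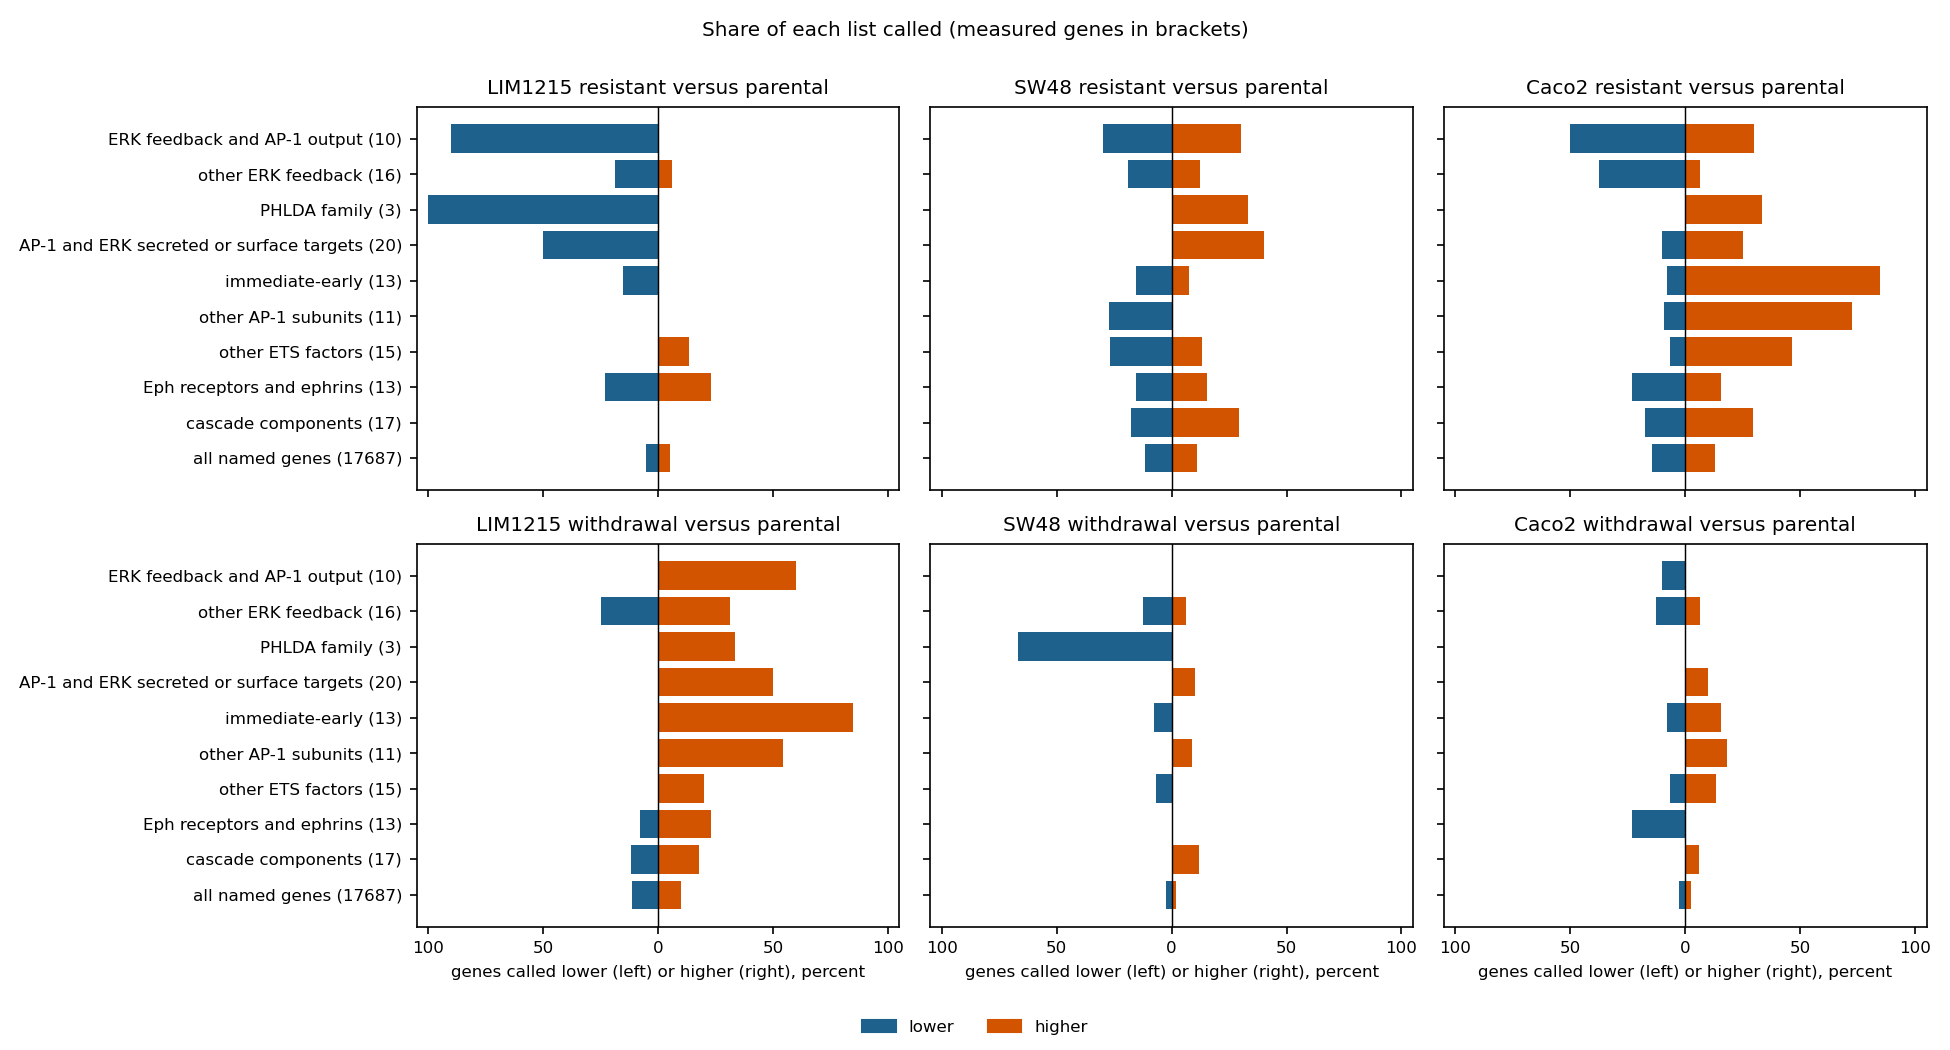
Percent of measured genes called lower (left of 0) or higher (right of 0) at an adjusted p under 0.05 in each gene list (vertical axis, number measured in brackets), for resistant (top) and withdrawal (bottom) against parental cells of each line. In LIM1215 resistant cells the ERK feedback and AP-1 output genes are called lower in 9 of 10 cases and the secreted or surface targets in 10 of 20, while in Caco2 resistant cells 11 of 13 immediate-early genes are called higher.

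Other genes of the pathway were read from lists, beside the shares of all genes given above. Of 20 measured AP-1 and ERK targets that are secreted or at the cell surface, 0 rose and 10 fell in LIM1215 resistant against parental cells (median -0.78), and 10 rose and 0 fell in withdrawal against parental cells (median 0.68). Without parental replicate 3 the counts were 0 and 9, and 11 and 0. The gene with the largest decrease was PLAUR, the receptor of the urokinase plasminogen activator. It read 7.56, 7.15 and 7.71 in LIM1215 resistant cells, against 9.33, 9.27 and 12.44 in parental cells (at least 5.48-fold lower, adjusted p = 0.000497, or at least 2.65-fold without replicate 3). In SW48 resistant cells 8 of the 20 rose and 0 fell, led by LIF, a cytokine of the interleukin 6 family. LIF read 11.03, 11.04 and 11.29 in SW48 resistant cells, against 7.44, 6.21 and 6.96 in parental cells, of which 2 of 3 arrays were above background, an increase of at least 17.1-fold (adjusted p = 1.18e-08), and withdrawal cells (7.12, 7.44 and 6.08) overlapped parental cells. In Caco2 resistant cells 5 rose and 2 fell. LIF, above background on 2 of 3 resistant arrays, was among the genes that rose (at least 1.38-fold, adjusted p = 1.44e-06), and the interstitial collagenase gene MMP1 fell 23.6-fold (adjusted p = 8.34e-08), with 8.88, 8.97 and 8.49 in resistant cells against 13.22, 13.40 and 13.41 in parental cells.

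Immediate-early genes, which ERK and stress kinases switch on within minutes, moved differently from line to line. Of 13 measured, 0 rose and 2 fell in LIM1215 resistant against parental cells (median -0.08), or 4 and 2 without parental replicate 3 (median 0.31). In LIM1215 withdrawal against parental cells 11 rose and 0 fell, or 12 and 0 without it. In Caco2 resistant cells 11 rose and 1, MYC, fell (median 1.39), while 1 rose and 2 fell in SW48, or 1 and 6 without LIM1215 parental replicate 3. NR4A1, an orphan nuclear receptor gene, is an example. It read 13.38, 12.41 and 12.20 in LIM1215 resistant cells, against 13.69, 13.56 and 14.63 in parental cells (2.47-fold lower, adjusted p = 0.000327, or 1.96-fold without replicate 3). In Caco2 it read 14.15, 14.40 and 14.41 in resistant cells against 11.50, 11.44 and 11.37 in parental cells, a 7.37-fold increase (adjusted p = 1.15e-09). EGR3, a zinc finger transcription factor gene, rose at least 1.93-fold in Caco2 resistant cells (adjusted p = 1.54e-07), where parental cells were near background. Of 11 other AP-1 subunits, 4 of which are also in the immediate-early list, 0 changed in LIM1215 resistant cells by limma (2 lower at an unadjusted p under 0.05, and 3 higher and 1 lower at the adjusted one without replicate 3), 0 rose and 3 fell in SW48 (0 and 5 without that array), and 8 rose and 1 fell in Caco2. ATF3 led the SW48 decreases, at least 5.89-fold with 2 of 3 resistant arrays above background (adjusted p = 2.58e-05), and JDP2, a repressor that dimerises with JUN, was the Caco2 gene that fell (2.22-fold, adjusted p = 0.00392).

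Of 16 genes listed as other ERK feedback, 1 rose and 3 fell in LIM1215 resistant against parental cells, 2 rose and 3 fell in SW48, and 1 rose and 6 fell in Caco2. The list is a broad one of regulators of EGFR, RAS and MAP kinases, so its counts are not specific to ERK feedback. Without LIM1215 parental replicate 3 the counts were 2 and 3 in LIM1215 and 2 and 7 in Caco2. ERRFI1, whose product binds and inhibits EGFR, read 13.73, 13.46 and 13.52 in LIM1215 resistant cells, against 15.12, 15.15 and 16.16 in parental cells (3.75-fold lower, adjusted p = 2.62e-08, or 2.95-fold without replicate 3), and stood 7.0-fold higher in withdrawal than in resistant cells. DUSP1, a nuclear phosphatase of JNK and p38, rose 4.91-fold in Caco2 resistant cells (adjusted p = 4.4e-06), and SPRY2 fell at least 1.97-fold there (adjusted p = 4.9e-08). In SW48, DUSP16 fell 2.40-fold (adjusted p = 2.73e-05) and DUSP10 rose with both groups near background. RASAL2, a RAS GTPase-activating protein gene, rose 1.59-fold in LIM1215 resistant cells (adjusted p = 0.000802, or 1.53-fold without replicate 3). Of 17 measured components of the kinase cascade, 0 changed in LIM1215 resistant cells by limma (1 higher at an unadjusted p under 0.05, and 2 higher and 1 lower at the adjusted one without replicate 3), and 5 rose and 3 fell in each of SW48 and Caco2. MAPK3, which encodes ERK1, rose 2.14-fold in SW48 (adjusted p = 8.13e-06), and KSR1, a scaffold of the cascade, 2.15-fold in Caco2 (adjusted p = 0.00163).

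Among 15 other ETS factors, 2 rose and 0 fell in LIM1215 resistant cells, 2 rose and 4 fell in SW48, and 7 rose and 1 fell in Caco2. ETS1, which lymphoid cells including NK cells express, rose in resistant cells of each line: 3.21-fold in SW48 (adjusted p = 0.000137), at least 1.5-fold in Caco2 with 2 of 3 resistant arrays above background (adjusted p = 2.2e-12), and with both groups near background in LIM1215. The NK and leukocyte markers given above moved with it. In SW48, ETS1 averaged 9.86 in resistant cells and was also above background in parental cells, at 8.17, which had no NK cells added. The part of NK cell RNA in the ETS1 result was not tested. ETV1, the third gene of the PEA3 group, fell in SW48 with both groups near background, and ELK4 fell 1.25-fold in Caco2 (adjusted p = 0.0161). The 3 measured genes with names like that of PHLDA1 (PHLDA2, PHLDA3 and PHLDB2) fell in LIM1215 resistant cells, PHLDA2 the furthest at 2.91-fold (adjusted p = 2.65e-05). All 3 passed without parental replicate 3, PHLDA2 at 2.73-fold. PHLDA2 instead rose 2.18-fold in SW48 (adjusted p = 0.00056) and rose in Caco2 with both groups near background.

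Of 13 other Eph receptors and ephrins, 3 rose and 3 fell in LIM1215 resistant cells (4 and 3 without parental replicate 3), 2 rose and 2 fell in SW48, and 2 rose and 3 fell in Caco2. EFNB2, the gene of the ephrin-B2 ligand, fell in resistant cells of each line. It read 8.05, 8.08 and 7.58 in LIM1215 resistant cells, against 10.28, 10.44 and 12.32 in parental cells (8.61-fold lower, adjusted p = 1.3e-07, or 5.48-fold without replicate 3). LIM1215 withdrawal values of 13.32, 13.16 and 13.25 were 40.5-fold above resistant cells (adjusted p = 1.16e-11) and 4.70-fold above parental cells (adjusted p = 2.79e-05, or 7.38-fold without replicate 3). The decrease was 7.26-fold in SW48 (adjusted p = 2.96e-07) and 4.16-fold in Caco2 (adjusted p = 1.89e-05). EFNA5, an ephrin-A ligand gene, fell at least 14.3-fold in SW48 resistant cells (adjusted p = 3.45e-14), with 6.75, 6.12 and 6.47 in resistant cells against 11.01, 10.82 and 10.93 in parental cells. EFNA1, a ligand gene of EPHA2, rose at least 2.21-fold in Caco2 resistant cells (adjusted p = 0.00264), and EFNA2 rose in LIM1215 and SW48 with both groups near background. BATF, an AP-1 family gene of lymphoid cells, rose in Caco2 resistant cells with both groups near background.

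Across the 9 group means, centred within each line, the 10 genes gave 45 pairs, of which 42 correlated above 0 and 26 above 0.7 (median Pearson r 0.722, range -0.14 to 0.99). These points share lines and arrays and are dominated by the LIM1215 spread, so the values are a description. Among 7465 other genes above background in at least 1 group of each line, those most like the mean of the 10 were SMIM3 (r = 0.972), SNAI1 (0.965), CLCN5 (0.963), STK17A (0.962) and NR1D1 (0.958), over 9 group means.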

How the data were processed

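Total RNA of LIM1215, SW48 and Caco2 cells in 3 states was hybridised to 27 single-colour arrays, with 250 ng of RNA each per the labels' protocols. The deposited values, 1 for each probe set and array, were read as log2 intensity, a base judged from their range. The sources used here give no software, background correction or normalization. Of 21448 transcript probe sets, 17709 matched 1 gene symbol and 3739 were not named; the brightest was used for 20 genes with several, leaving 17687 genes, with no filter on dim genes. Values were used as deposited, and the number of arrays limits the precision.

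Group means were estimated from the 27 arrays together in R 4.3.3 by limma 3.58.1, with lmFit followed by eBayes (residual degrees of freedom 18, prior 4.12), so the spread is shared across lines. P-values are two-sided and were adjusted by Benjamini and Hochberg's method over 17687 genes, separately for 9 contrasts within lines and for the moderated F tests of differences between lines. Calls required an adjusted p under 0.05. Errors are standard errors of that fit. "At least" folds are given where any array of the dimmer group lies under the 95th percentile of its own negative controls, and use the higher of the 2 values for that array, and no fold is given where both groups are near background. Contrasts of a line share arrays. The procedure was tested on simulated data. Data were read with version 1.17.8 of the R package data.table, and figures drawn with Python 3.11.15, pandas 2.3.3 and matplotlib 3.10.9. Alternatives covered quantile normalization, median centring, a filter on dim genes, all transcript probe sets, eBayes with trend, array weights, a replicate block, the arrays of 1 line, each array left out and the 99th percentile of the controls. The SW48 and Caco2 contrasts without LIM1215 parental replicate 3 were added after seeing the data.

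The genes and lists were chosen with earlier results of these data known. Named are the 10 genes; from each list and line, the called gene with the largest change between resistant and parental cells in each direction whose arrays do not overlap; the 5 genes whose centred group means correlate best with the mean of the 10; and EGFR and EREG for context. NR4A1, LIF, EFNB2 and PHLDA2 are also given in lines where another gene led. Several listed genes were not analysed here.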

Additional observations from a re-analysis of the deposited data

Results flagged for a closer look

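The change from parental to resistant cells differed between the 3 lines for 9 of the 10 genes, by the moderated F test of limma with adjustment over all genes. The adjusted p was 8.98e-09 for DUSP4, 0.00069 for DUSP5, 0.000195 for DUSP6, 5.33e-08 for SPRY1 and 3.96e-05 for SPRY4. It was 7.95e-11 for PHLDA1, 6.11e-07 for ETV4, 1.55e-09 for FOSL1 and 0.000142 for EPHA2. The DUSP4 difference was -2.72 log2 units in LIM1215, 0.90 in SW48 and -1.06 in Caco2, and the FOSL1 difference was -2.75 in LIM1215, 0.40 in SW48 and 0.85 in Caco2. The change from parental to withdrawal cells differed for DUSP6 (0.0388), PHLDA1 (0.000615), ETV5 (0.000372), FOSL1 (0.0123) and EPHA2 (0.00113). The ETV5 difference was 3.01 log2 units in LIM1215, 0.13 in SW48 and -0.47 in Caco2. These tests compare changes within lines, so a constant offset between the lines' arrays cancels. An unequal scale or closeness to background does not cancel, and in Caco2 DUSP4 and ETV4 were near background in each state. Without LIM1215 parental replicate 3, each of these 14 results kept an adjusted p under 0.05. Groups of 3 arrays are too small for a test of single outlying arrays, and that array's values are given with the results.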

How the results depend on the processing

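Outside the settings that leave out an array, 340 of 356 counts of called genes stayed within 1.5 times the reported count. Array weights gave 1603 genes higher and 1665 lower between LIM1215 resistant and parental cells, 2806 and 3150 between withdrawal and parental cells, 3 of the 10 genes lower between Caco2 withdrawal and parental cells, 4 higher between Caco2 withdrawal and resistant cells, and line differences after withdrawal for 5551 genes and 10 of the 10. With the arrays of 1 line only, 575 genes were lower between LIM1215 resistant and parental cells, 1064 higher and 1163 lower between LIM1215 withdrawal and parental cells with 3 of the 10 higher, and 156 higher and 224 lower between SW48 withdrawal and parental cells with 1 of the 10 lower. Quantile normalization over all arrays left 1 of the 10 higher between Caco2 resistant and parental cells, DUSP5 (adjusted p = 0.0501) and SPRY1 (0.0531) being lost, ended the SW48 DUSP6 call (0.0878) and brought the LIM1215 DUSP5 decrease past the threshold (0.0493). The cause was not tested, except that fewer arrays leave fewer degrees of freedom.

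Leaving out each array in turn gave 1031 to 2357 genes higher and 1229 to 2662 lower between LIM1215 withdrawal and parental cells, 188 to 484 and 260 to 615 between SW48 withdrawal and parental cells, and 315 to 621 higher between Caco2 withdrawal and parental cells. Of the 10 genes, 1 to 4 were higher and 3 to 5 lower between Caco2 resistant and parental cells, 0 to 4 lower between Caco2 withdrawal and parental cells, 1 to 4 higher between Caco2 withdrawal and resistant cells, and 4 to 10 differed between lines after withdrawal. Between LIM1215 resistant and parental cells 8 to 10 were lower, and between withdrawal and resistant cells 10 were higher each time.

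Signs turned only for differences that had not passed: EPHA2 between SW48 withdrawal and resistant cells (-0.0053 and -0.0046 under quantile normalization over all arrays and within lines, -0.0094 to 0.0681 without an array), SPRY4 between Caco2 withdrawal and parental cells (-0.0184 with array weights, -0.1501 to 0.1732 without an array), SPRY4 and SPRY1 between SW48 withdrawal and parental cells (-0.0723 to 0.3168, and -0.0113 to 0.3433, without an array), FOSL1 between SW48 withdrawal and resistant cells (-0.0564 to 0.0292), and PHLDA1 between Caco2 withdrawal and resistant cells (-0.0334 to 0.0447).

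Same-numbered arrays of a line did not deviate together (correlations of -0.041 to 0.075 over 27 pairs), so the numbers were not taken as pairs. With a replicate block, 9 of the 10 genes were lower between LIM1215 resistant and parental cells and 4 lower between Caco2 resistant and parental cells. Signal over background limits the folds: with the 95th percentile of the negative controls as the limit, 13 of 90 group means were near background, and 45 with the 99th. Folds were bounded at the 95th percentile only, so some given as measured would not count as measured at the 99th.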
